A study of Homo sapiens with 10 samples.

Results

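Transcription factors that hold a B cell in its identity, or carry it into the antibody-secreting plasma cell, were compared between U266 cells with a guide to EFNB2 and U266 cells with a control guide. The members were 10 named genes of the 60573 in the count table, matched by symbol. The B cell side held 5 of them (BCL6, BACH2, PAX5, SPIB and SATB1) and the plasma cell side the other 5 (PRDM1, IRF4, XBP1, POU2AF1 and KLF2). U266 is an established human multiple myeloma line, a tumour of plasma cells. In all libraries the cells expressed dCas9-VPR from a lentivirus. This is a cleavage-dead Cas9 joined to transcriptional activation domains, which a guide RNA brings to a chosen promoter. The 5 libraries of the EFNB2 group (A to E) came from cells that also expressed a guide RNA directed at the start of EFNB2, the gene of the ligand ephrin-B2. The control group was 5 libraries (A to E) of cells expressing a scrambled guide with no target. Both groups were selected and kept in puromycin and blasticidin. Separate cultures or transductions are not named in the labels for libraries that share a guide. The p-values therefore measure only the spread between these libraries, and 1 guide to EFNB2 stands for that group.

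The factors work as opposed circuits. In the B cell, PAX5 maintains B cell identity, BCL6 represses genes of activation and differentiation in the germinal centre, and BACH2 delays plasma cell differentiation by repressing PRDM1. In the plasma cell, PRDM1 (Blimp-1) represses the B cell programme, IRF4 drives PRDM1 and is needed for the survival of myeloma cells, and XBP1 expands the secretory apparatus. BCL6 and PRDM1 repress each other.

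Total counts per library lay between 47267929 and 56513336. Values are CPM, each gene's counts scaled to 1000000 counts per library, with library sizes adjusted by TMM, a method that corrects for differences in RNA composition, and 3 counts, the limit that a count of 0 allows, were worth 0.0537 to 0.0627 CPM. Intervals and limits from counts cover counting error only. EFNB2 itself stood at 0.955, 1.12, 1.25, 1.50 and 1.21 CPM in libraries A to E with its guide and at 0.170, 0.136, 0.143, 0.110 and 0.0365 CPM in libraries A to E of the control, without overlap. The A libraries stood apart from the others of their group for many of the genes named here, so members' values are also given without both of them. Most of the 10 plasma cell markers were well detected: IGHE, the heavy chain of the antibody class this line makes, had a mean of 3046 CPM in the EFNB2 group and 3447 in the controls, and SDC1 (CD138) had 2121 and 3015 CPM. MZB1 (3.54 and 5.57 CPM), CD38 (8.03 and 1.78 CPM) and TNFRSF13B (18 and 15 counts in all) were the low ones. Of the 10 B cell surface markers, CD79B was the highest (5.01 and 6.11 CPM) and the others had means below 1.5 CPM, with MS4A1 (CD20) at 4 and 2 counts in all.

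Among the factors, the B cell side held the largest differences. SATB1 and BCL6 rose 24.2-fold and 7.78-fold and SPIB rose 1.22-fold, whereas BACH2 fell to 0.597 of its control level. On the plasma cell side XBP1 and KLF2 rose 1.15-fold and 1.58-fold and POU2AF1 fell to 0.853 of its control level, while PRDM1 and IRF4 did not pass the test. In bulk RNA, a change in the number of cells that express a gene and a change in its RNA per cell cannot be told apart. Of the 10 factors, 9 passed the filter on low counts, and 7 of these 9 passed an adjusted p of 0.05, 5 higher and 2 lower (edgeR's quasi-likelihood test, Benjamini-Hochberg adjustment over all 17833 genes tested). Across all tested genes 45.4% passed, 22.8% higher and 22.6% lower, so calls alone were frequent. A change of at least 2-fold was rarer, at 4.03% of tested genes, and BCL6 and SATB1 were the 2 members that reached it. The libraries of the guides did not overlap for 7 of the 9 tested members and for 30.3% of all tested genes, nor for PAX5, which was not tested. The median log2 fold change was 1.63 over the 4 tested members of the B cell side and 0.04 over the 5 of the plasma cell side. Over all tested genes it was 0.01. The 4 of the B cell side ran from -0.74 (BACH2) to 4.60 (SATB1). Members were chosen with earlier results of these data known, so their medians describe these members alone. With 5 libraries a group, the exact permutation test (two-sided, over all assignments of the libraries to the guides) can go no lower than p = 0.0079. That value was reached by all members except PRDM1 and IRF4. Groups without overlap always reach it, so it restates the lack of overlap. For PAX5 it rests on 3 to 11 counts a library against 0 to 2.

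**Figure D1:**
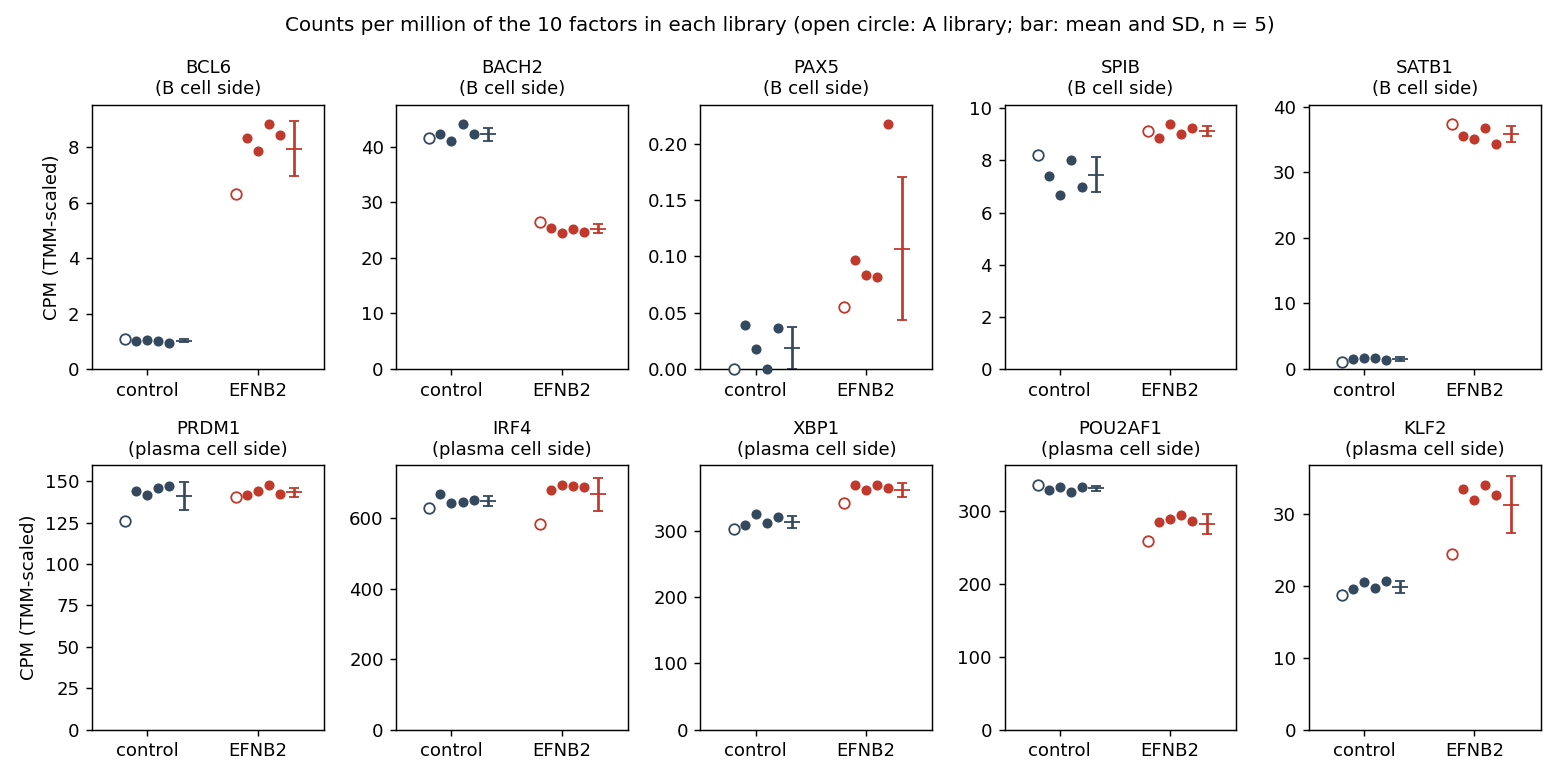
CPM (TMM-scaled) of each factor in every library, with control libraries at the left and EFNB2 libraries at the right of each panel. Open circles are the A libraries, filled circles the libraries B to E, and bars the mean and SD (n = 5). Each axis starts at 0 and has its own scale. The groups overlap for PRDM1 and IRF4 and for no other member.

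**Figure D2:**
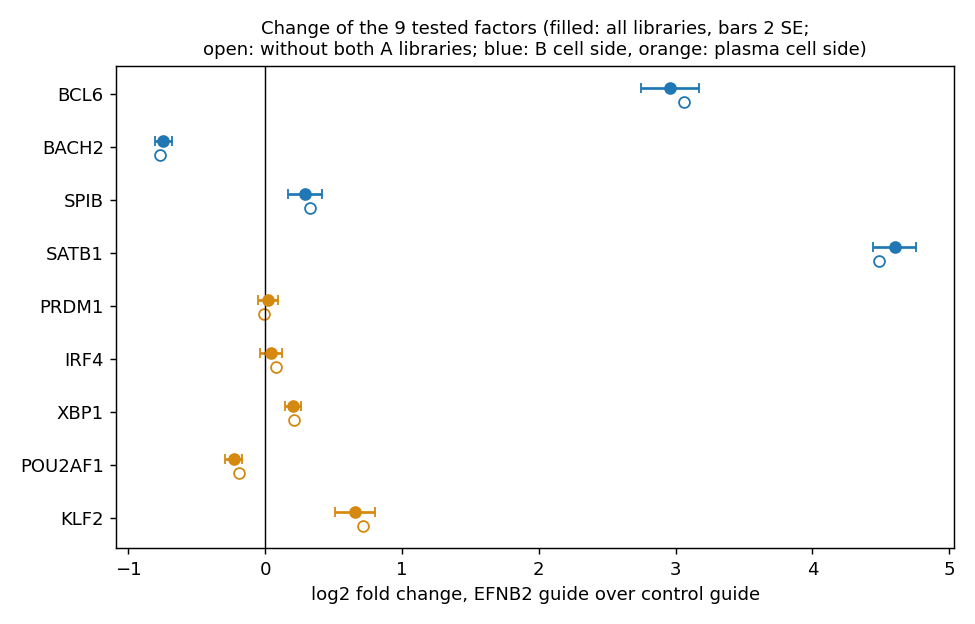
Log2 fold change (EFNB2 guide over control guide) of the 9 tested factors, with bars of 2 standard errors, for all 10 libraries and without both A libraries. SATB1 (4.60) and BCL6 (2.96) lie far above 0, BACH2 (-0.74) lies below it and PRDM1 (0.02) lies at it.

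BCL6 encodes a zinc finger repressor on chromosome 3 (RefSeq GRCh38.p14, chr3:187721377-187745468, minus strand). With the EFNB2 guide it stood at 6.30, 8.33, 7.88, 8.83 and 8.44 CPM in libraries A to E. With the control guide it stood at 1.10, 1.01, 1.06, 0.991 and 0.948 CPM. Every EFNB2 library lay above every control library, and the A library was the lowest of its group. The means were 7.96 ± 0.986 CPM (SD, n = 5) and 1.02 ± 0.0578 CPM (SD, n = 5), from 2009 and 275 counts. The log2 fold change was 2.96 (SE 0.11), a 7.78-fold rise with a range of 6.72 to 9.0 at 2 standard errors on either side (edgeR, adjusted p = 8.73e-12). Without both A libraries it was 3.06. BCL6 had the 44th smallest p of all tested genes.

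SATB1 encodes a chromatin organiser best known in developing lymphocytes, where it shapes long-range contacts between regulatory elements. It also lies on chromosome 3 (chr3:18345377-18445592, minus strand), far from BCL6. With the EFNB2 guide it stood at 37.3, 35.5, 35.1, 36.8 and 34.3 CPM in libraries A to E. With the control guide it stood at 1.04, 1.55, 1.70, 1.69 and 1.39 CPM. The lowest EFNB2 library was far above the highest control library. The means were 35.8 ± 1.25 CPM (SD, n = 5) and 1.47 ± 0.274 CPM (SD, n = 5), from 9086 and 398 counts. The log2 fold change was 4.60 (SE 0.08), a 24.2-fold rise with a range of 21.8 to 27.0 at 2 standard errors (edgeR, adjusted p = 1.99e-15), and 4.48 without both A libraries. SATB1 had the third smallest p of all tested genes. Its gene overlaps TBC1D5 on the same strand and the antisense gene SATB1-AS1 on the other, and whether the counting used strand is not given in the sources used here. Both overlapping genes were slightly lower, TBC1D5 at 98.6 against 106 CPM (log2 fold change -0.11, adjusted p = 0.0254) and SATB1-AS1 at 3.53 against 4.50 CPM (log2 fold change -0.35, adjusted p = 0.00253). Neither overlapping gene rose with SATB1, and the call of TBC1D5 was lost with the replicate block and without C, D or E of either guide (adjusted p up to 0.0866).

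The genes around these 2 factors did not share their rise. Within 500 kb of BCL6, 5 genes were tested. LINC02041, RTP4 and MASP1 were lower (log2 fold changes -0.36, -0.18 and -0.56). LPP and its antisense gene LPP-AS2 did not pass (0.17 and 0.25), and the median was -0.18. With the EFNB2 and the control guide, MASP1 stood at only 0.527 and 0.778 CPM and LPP-AS2 at 0.304 and 0.257 CPM. RTP4 stood at 9.79 and 11.1 CPM. The call of RTP4 was lost with the replicate block and without B, C or D of either guide (adjusted p up to 0.101). Within 500 kb of SATB1, 3 genes were tested, the 2 overlapping genes above and AC132807.2, which did not pass (-0.07), with a median of -0.11.

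The stretches just upstream of the start sites of the 2 factors that rose most, and of BACH2, which fell most, are shown because they are where factors of this circuit could be read in sequence. Each is the 250 bases before an annotated start (RefSeq GRCh38.p14, minus strand, printed 5′ to 3′ toward the start), and capitals mark matches to the motifs searched. SATB1 has several annotated starts, of which the 2 farthest upstream are given.
BCL6, chr3:187745469-187745718: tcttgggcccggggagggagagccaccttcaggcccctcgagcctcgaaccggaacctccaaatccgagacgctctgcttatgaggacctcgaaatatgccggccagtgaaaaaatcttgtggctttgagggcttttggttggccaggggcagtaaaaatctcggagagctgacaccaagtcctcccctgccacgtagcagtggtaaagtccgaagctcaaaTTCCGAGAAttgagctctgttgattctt
SATB1, first start, chr3:18445593-18445842: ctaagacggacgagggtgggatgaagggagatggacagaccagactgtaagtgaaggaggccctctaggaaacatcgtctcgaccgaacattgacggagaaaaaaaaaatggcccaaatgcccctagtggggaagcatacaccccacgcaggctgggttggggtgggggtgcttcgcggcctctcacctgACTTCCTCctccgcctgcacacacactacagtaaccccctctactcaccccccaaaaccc
SATB1, second start, chr3:18444119-18444368: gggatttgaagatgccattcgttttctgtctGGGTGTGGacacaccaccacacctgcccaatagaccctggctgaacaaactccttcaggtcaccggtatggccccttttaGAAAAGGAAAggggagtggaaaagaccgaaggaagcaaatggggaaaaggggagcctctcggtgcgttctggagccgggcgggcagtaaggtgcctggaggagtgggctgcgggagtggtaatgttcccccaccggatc
BACH2, chr6:90296844-90297093: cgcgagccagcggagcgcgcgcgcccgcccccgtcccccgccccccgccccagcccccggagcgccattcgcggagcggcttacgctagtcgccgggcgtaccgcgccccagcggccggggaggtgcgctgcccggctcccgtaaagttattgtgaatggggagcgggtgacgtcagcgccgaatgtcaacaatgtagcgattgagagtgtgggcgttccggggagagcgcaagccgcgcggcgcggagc

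The RefSeq table held promoters for 9 of the 10 members, 15 start sites in all. POU2AF1 had none there and was not searched. The motifs were searched on both strands in the 250 bases before each start, in the member promoters and in all 34943 promoters of the table. Upstream of BCL6 the letters TTCCGAGAA, beginning 28 bases before the start, match the STAT motif TTCNNNGAA, which 6.56% of all promoters hold. That motif contains the BCL6 motif TTCCTAGAA as a special case, which 0.315% hold and the BCL6 window does not. Upstream of the first SATB1 start, a match to the PU.1 and SPIB motif GAGGAAGT (2.17% of promoters) lies on the reverse strand, where it reads ACTTCCTC. Upstream of the second SATB1 start lie a match to the IRF motif (a pair of GAAA boxes with 2 bases of any kind between, in 3.02% of promoters), which reads GAAAAGGAAA, and one to the KLF motif CCACACCC (2.97%), which reads GGGTGTGG on the reverse strand. The BACH2 window held none of the motifs searched, which also included the PRDM1 motifs AAAGTGAAA (0.549%) and AGNGAAAG (6.57%), the octamer ATTTGCAT (1.63%), the Maf element TGACTCAGC (0.458%) and the XBP1 motif TGACGTGG (0.615%). Its 250 bases are rich in G and C (73.6%, with 40 CpG), beside 54.4% and 12 CpG for BCL6 and medians of 58.0% and 11 CpG over all promoters. No motif searched was found before the other starts of BCL6 and SATB1, or before any start of the remaining members searched. The STAT, IRF, KLF, and PU.1 and SPIB motifs were thus each found before 1 of the 15 starts. A match describes letters and no binding was measured.

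BACH2 encodes a leucine zipper repressor that pairs with small Maf proteins (chr6:89926528-90296843, minus strand). It stood at 26.5, 25.3, 24.6, 25.1 and 24.6 CPM in libraries A to E with the EFNB2 guide and at 41.6, 42.2, 41.0, 44.1 and 42.4 CPM with the control guide. Every EFNB2 library was below every control library, opposite in direction to BCL6, SATB1 and SPIB. The means were 25.2 ± 0.797 CPM (SD, n = 5) and 42.3 ± 1.14 CPM (SD, n = 5). BACH2 fell by 0.74 on the log2 scale (SE 0.03), to 0.597 of the control level with a range of 0.571 to 0.625 at 2 standard errors (edgeR, adjusted p = 9.37e-11), and without both A libraries the log2 fold change was -0.77.

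SPIB, a factor of the ETS family expressed in B cells (chr19:50418938-50431314, plus strand), changed much less. It stood at 9.13, 8.85, 9.38, 9.02 and 9.23 CPM with the EFNB2 guide and at 8.22, 7.41, 6.66, 8.00 and 6.98 CPM with the control guide. The groups were close but did not overlap. SPIB rose by 0.29 on the log2 scale (SE 0.06), or 1.22-fold, with a range of 1.12 to 1.33 (edgeR, adjusted p = 0.0012), and 0.33 without both A libraries.

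PAX5, the factor that commits cells to the B lineage (chr9:36833269-37034268, minus strand), was barely detected. Its counts were 3, 5, 4, 4 and 11 in libraries A to E with the EFNB2 guide and 0, 2, 1, 0 and 2 with the control guide. Library E holds 11 of the 27 counts of the EFNB2 group. Relative to library size the ratio of the summed counts was 5.75 (95% exact interval 2.18 to 19.1), and without library E of the EFNB2 group, 16 against 5 counts gave 4.25 (1.49 to 14.8). PAX5 did not pass the filter on low counts and has no adjusted p in the test above. Without both A libraries its mean was 0.120 ± 0.0654 CPM (SD, n = 4) against 0.0233 ± 0.0181 CPM, still without overlap. When no filter was applied, its adjusted p was 0.00838 (edgeR). All its values lay at 0.217 CPM or below, a trace beside the other members.

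PRDM1, the repressor that ends the B cell programme (chr6:105992690-106109938, plus strand), gave no call. It stood at 140, 142, 144, 148 and 142 CPM in libraries A to E with the EFNB2 guide and at 126, 144, 141, 146 and 147 CPM with the control guide. The groups overlapped, and control library A alone was low. The log2 fold change was 0.02 (SE 0.04; edgeR, adjusted p = 0.638; exact permutation p = 0.762), and -0.01 without both A libraries. The interval of 2 standard errors holds neither a change of the size of BACH2 nor one of the size of KLF2.

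IRF4 (chr6:391752-411443, plus strand) had the highest CPM of the members. It stood at 584, 679, 694, 692 and 689 CPM with the EFNB2 guide and at 628, 667, 644, 647 and 652 CPM with the control guide. The groups overlapped because EFNB2 library A lay below all the others. With all libraries the log2 fold change was 0.04 (SE 0.04; edgeR, adjusted p = 0.414; exact permutation p = 0.484). Without both A libraries it was 0.08 (adjusted p = 0.00114), and the groups then stood apart, at 679 to 694 against 644 to 667 CPM. Whether IRF4 was called thus rested on 1 library, and the difference was small either way.

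XBP1, the factor of the unfolded protein response that secretory cells depend on (chr22:28794560-28800569, minus strand), was modestly higher. It stood at 342, 369, 362, 369 and 364 CPM with the EFNB2 guide and at 302, 309, 325, 311 and 320 CPM with the control guide, without overlap. XBP1 rose by 0.20 on the log2 scale (SE 0.03), or 1.15-fold, with a range of 1.11 to 1.20 (edgeR, adjusted p = 2.18e-05), and 0.21 without both A libraries. Gene-level counts do not separate the spliced, active form of XBP1 RNA from the unspliced one.

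POU2AF1, the coactivator that joins octamer-binding factors at immunoglobulin promoters (chr11:111352255-111379275, minus strand), was the 1 member of the plasma cell side that fell. It stood at 259, 286, 289, 295 and 287 CPM with the EFNB2 guide and at 336, 329, 333, 326 and 333 CPM with the control guide. The groups did not overlap, with EFNB2 library A the lowest of all. Its log2 fold change was -0.23 (SE 0.03; edgeR, adjusted p = 2.10e-05), and -0.19 without both A libraries.

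KLF2, a zinc finger factor of resting and migrating lymphocytes (chr19:16324826-16328685, plus strand), had the largest change of the plasma cell side. It stood at 24.5, 33.5, 32.0, 34.1 and 32.7 CPM with the EFNB2 guide and at 18.7, 19.5, 20.5, 19.8 and 20.7 CPM with the control guide. All EFNB2 libraries were above all controls, with library A the closest to them. KLF2 rose by 0.66 on the log2 scale (SE 0.07), or 1.58-fold, with a range of 1.43 to 1.74 (edgeR, adjusted p = 2.70e-06), and 0.71 without both A libraries.

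**Figure D3:**
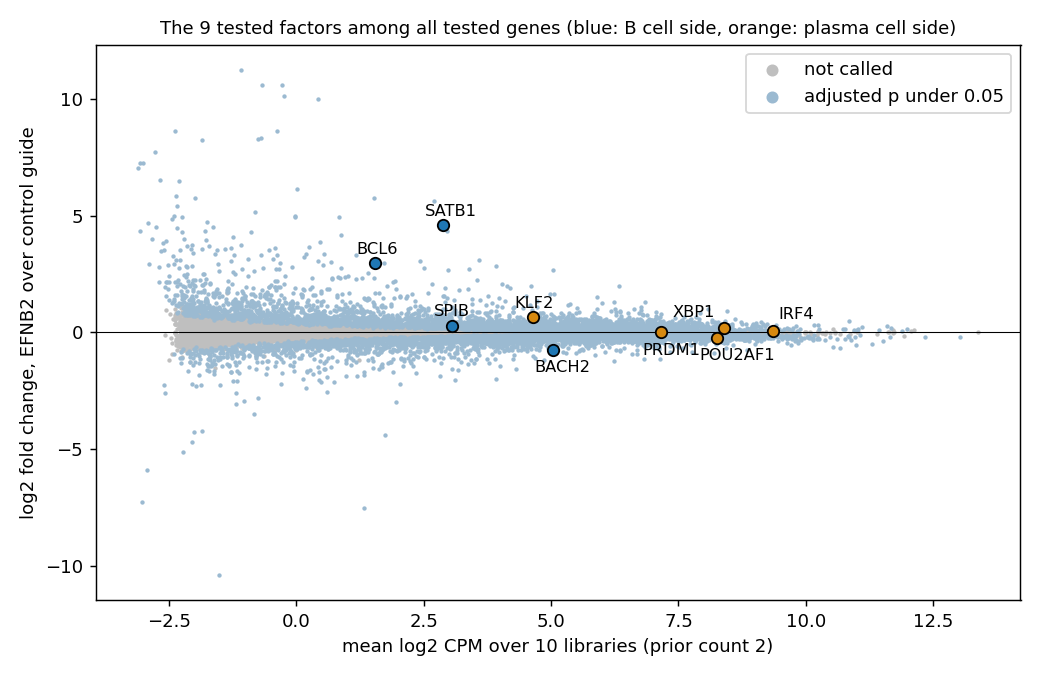
Log2 fold change (EFNB2 guide over control guide) against mean log2 CPM over 10 libraries for all tested genes, with called genes in light blue, genes not called in grey, and the 9 tested factors labelled (dark blue for the B cell side, orange for the plasma cell side). SATB1 (4.60) and BCL6 (2.96) lie highest of the 9 factors, KLF2 (0.66) and BACH2 (-0.74) lie to either side of 0 at middle abundance, and PRDM1, IRF4, XBP1 and POU2AF1 lie between -0.23 and 0.20 at high abundance.

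To compare levels between genes, CPM were divided by the length of each gene's exons in kilobases, taken as the union of annotated exons, which counts unused exons too. On this scale the plasma cell side stood above the B cell side with either guide. With the control guide the order of mean CPM per kilobase was IRF4 (110), XBP1 (104), POU2AF1 (44.7), PRDM1 (22.0), KLF2 (9.84), BACH2 (4.32), SPIB (1.74), BCL6 (0.172), SATB1 (0.110) and PAX5 (0.0020). IRF4 and XBP1, neighbours at the top, overlapped in both groups. With the EFNB2 guide SATB1 stood sixth, at 2.67 ± 0.0930 CPM per kilobase (SD, n = 5), overlapping BACH2 at 2.58 ± 0.0815, and BCL6 reached 1.34 ± 0.166. KLF2, the lowest of the plasma cell side, was at 15.5 ± 1.94. Even after its rise, BCL6 thus remained below every plasma cell factor.

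**Figure D4:**
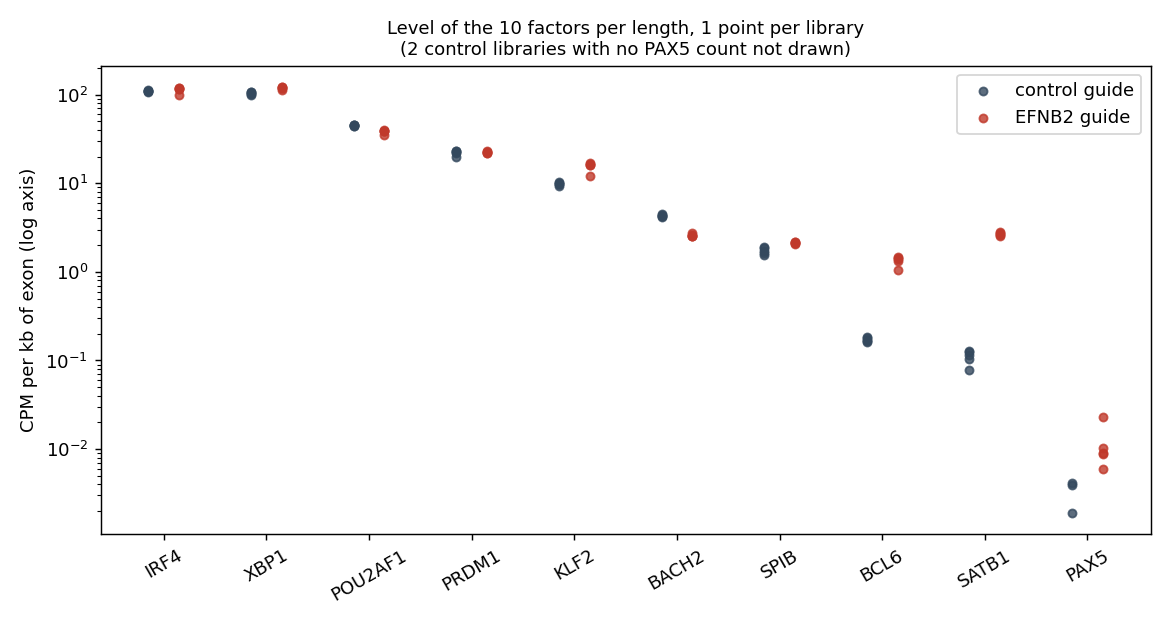
CPM per kilobase of exon on a log axis for each factor, with 1 point per library and colours for the guides (PAX5 in the 2 control libraries at 0 cannot be drawn on this axis). The 5 plasma cell factors lie above the 5 B cell factors with either guide, and SATB1 shows the widest gap between guides among the 9 tested factors.

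Opposed pairs were also read within each library, as the log2 CPM of the B cell factor minus that of the plasma cell factor. BCL6 minus PRDM1 was -4.17 ± 0.17 (SD, n = 5) with the EFNB2 guide and -7.06 ± 0.16 with the control guide, or 55.5 against 7.28 CPM of BCL6 per 1000 CPM of PRDM1. BACH2 minus PRDM1 moved the other way, from -1.73 ± 0.08 with the control guide to -2.50 ± 0.06. SPIB minus IRF4 was -6.18 ± 0.11 against -6.44 ± 0.14. Since PRDM1 and IRF4 differed little between the guides, these differences restate those of the B cell factors.

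Other factors of the same stages were mixed. Beside the list counts here and below, 22.8% of all tested genes were higher and 22.6% lower. Among other B cell factors, 5 of 16 tested rose and 6 fell (median log2 fold change 0.01). MEF2C, a factor of B cell proliferation, rose from 184 to 323 CPM (0.82), and RUNX1, a factor of blood cell development, fell from 8.69 to 3.94 CPM (-1.14). Among other plasma cell factors 2 of 11 rose and 4 fell (median -0.02). EAF2 rose (0.20) and ARID3A fell (-0.20), but EAF2 lost its call without EFNB2 library B or D or control library B, with the replicate block and with the normalized values (adjusted p up to 0.0718). BHLHA15 (MIST1), a factor of secretory cells, fell from 2.22 to 0.961 CPM (-1.21). It was named after its values were seen.

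Genes known to be repressed by BCL6, PRDM1 among them, were called in both directions, with 6 of 15 tested higher and 6 lower (median 0.02). ID2, an inhibitor of E proteins, rose from 13.4 to 19.1 CPM (0.51), and CCL3, a chemokine, and CD44, an adhesion receptor, fell by 0.68 and 0.67 on the log2 scale. Among the genes of this list at low level, S1PR1, a receptor for lymphocyte egress, rose from 0.450 to 3.77 CPM (3.06), and CD69, its antagonist at the cell surface, rose from 0.327 to 1.34 CPM (2.03). Both were named after their values were seen. Of the 20 corepressor genes of BCL6, all tested, 5 rose and 8 fell (median -0.04). KDM2B rose (0.33), and TBL1X fell from 81.0 to 41.9 CPM (-0.95).

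Genes activated by PAX5 gave 2 higher and 4 lower of 10 tested (median -0.20). CIITA, the master activator of MHC class II, rose from 117 to 138 CPM (0.24), and BLK, a B cell kinase, fell from 7.34 to 4.64 CPM (-0.66). FCER2 (CD23) rose from 0.168 to 0.768 CPM (2.19) and BANK1 fell from 1.18 to 0.533 CPM (-1.15), both named after their values were seen. Genes repressed by PRDM1 gave 3 higher and 2 lower of 6 tested (median 0.07), and the list holds BCL6 and SPIB, which are 2 of the 3 that rose. The count of 2 lower was 1 with the replicate block and without EFNB2 library B, C, D or E or control library C, D or E. MYC, which drives growth, fell from 16.2 to 7.22 CPM (-1.16). Genes activated by XBP1 gave 5 higher and 8 lower of 24 tested (median -0.02). Among these genes of protein folding and disposal, EDEM2 (0.32) and PDIA6 (0.26) rose while EDEM1 (-0.40) and DNAJB9 (-0.26) fell.

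BACH2 represses antioxidant genes with its Maf partners. Of this list, 1 of 13 tested genes rose and 7 fell (median -0.14). HMOX1, the haem oxygenase that BACH2 is known to repress, fell from 144 ± 29 to 76.3 ± 14.2 CPM (SD, n = 5; log2 fold change -0.91), and FTL, the ferritin light chain, fell by 0.35 on the log2 scale. MAFF rose slightly (0.22), a call lost without control library B, D or E (adjusted p up to 0.0551).

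KLF2 is known to drive receptors of lymphocyte trafficking. Of this short list, chosen with earlier results known, 3 of 5 tested genes rose and 1 fell (median 1.05). Over all tested genes 22.8% rose and 22.6% fell. CCR7, the chemokine receptor for homing to lymph nodes, rose from 0.277 to 0.578 CPM (1.05, named after its values were seen). S1PR1 is given above, as it is also in the list of genes repressed by BCL6. Both were low, with 75 (CCR7) and 121 (S1PR1) counts over the control libraries. Whether these rises follow from KLF2 was not tested. ITGB7, an integrin chain of gut homing, was lower (-0.14, adjusted p = 0.0383), but that call was lost without EFNB2 library B, C, D or E or control library C, with scaling by library totals and with the filter at 1 CPM (highest adjusted p = 0.0984).

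Relatives of the members by family were also called in both directions. Other KLF genes gave 1 higher and 6 lower of 12 tested (median -0.15), with KLF13 higher (0.33) and KLF7 lower (-0.54). In the IRF family 3 of 8 rose and 2 fell (median 0.08), with IRF7 higher (0.35) and IRF2 lower (-0.24). ETS relatives of SPIB gave 3 higher and 6 lower of 10 (median -0.16), with ETS1 higher (0.35) and FLI1 lower (-0.43). Of the octamer factors that POU2AF1 joins, 2 were tested, and POU2F2 rose (0.19). Without both A libraries, 2 of the 34 list counts moved by more than 1.5 times: 2 rather than 1 of the BACH2 list were higher, and 1 rather than 0 octamer factors was lower.

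**Figure D5:**
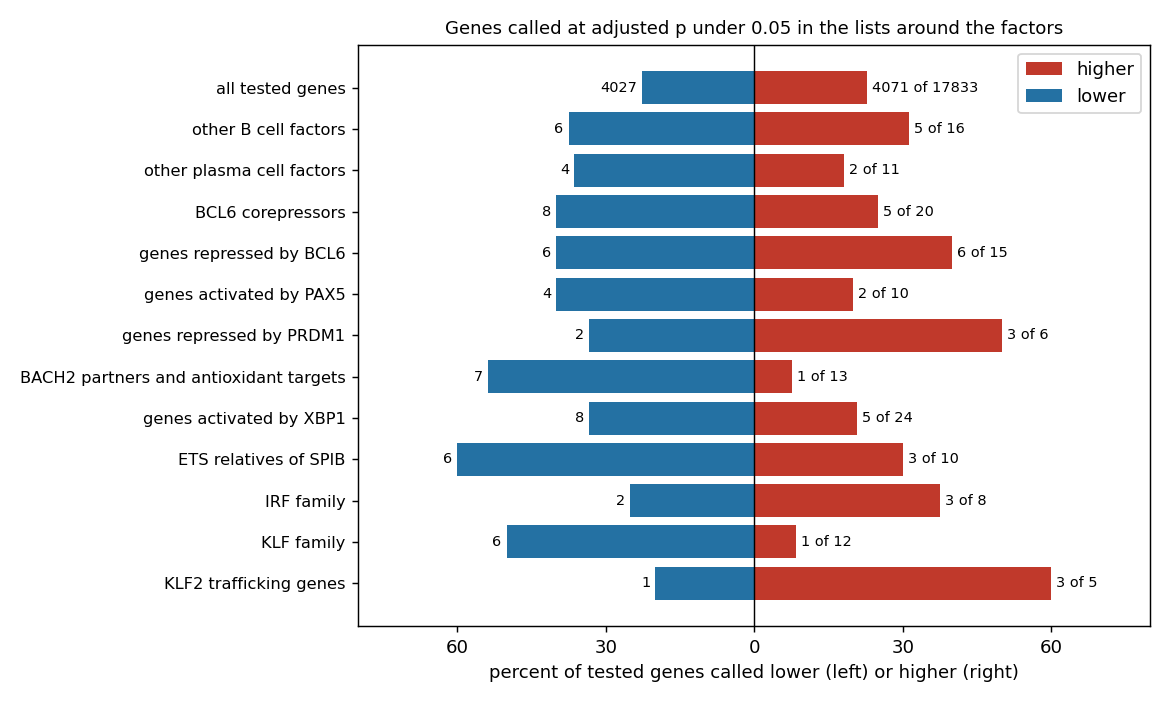
Share of tested genes called higher (right, red) or lower (left, blue) at an adjusted p of 0.05 in 12 lists around the factors and over all tested genes, with the number of genes at each bar. Each of these 12 lists holds genes called in both directions, as the 17833 tested genes do; the octamer factors and the marker lists are not drawn.

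The genes with profiles most like those of the members that changed most were found by the root mean square distance between log2 CPM profiles over the 10 libraries, each centred on its mean, among 12250 candidates. Among the 3 nearest to BCL6 were IL32 (distance 0.15) and PLEK (0.17). PLEK rose from 4.06 to 35.3 CPM. The nearest to SATB1 was LSAMP (0.24), a neural adhesion gene at 1.72 against 35.3 CPM, followed at a distance of 0.58 by AC036222.3 and 0.61 by PXYLP1. The nearest to BACH2 were BMF (0.04), a gene of apoptosis that fell from 100.1 to 59.4 CPM, SLC9A3R1 (0.05) and LITAF (0.05). Every such profile is dominated by the difference between guides.

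Markers of other cells were set beside these results. Of the 9 tested plasma cell markers, 3 rose and 6 fell, and their summed level was 7447 to 7956 CPM with the EFNB2 guide and 8012 to 9121 CPM with the control guide. B cell surface markers summed to 8.67 to 9.81 against 7.52 to 11.3 CPM, with 2 of 5 tested higher and 1 lower. The lower one, CD79B (adjusted p = 0.0468), lost its call in 11 of 19 alternatives, among them limma-voom, library totals, the replicate block and all fits that left out 1 library except those without EFNB2 library D or control library A. Of 7 tested T and NK cell markers 3 rose and 2 fell, and their sum was 279 to 332 against 160 to 231 CPM. Most of that sum was TRBC1 (293 against 199 CPM), and without it the sums were 13.5 to 15.1 and 11.7 to 13.1 CPM. The defining T cell genes were uneven: CD3E stood at 2.85 and 3.21 CPM (not called) and TRAC at 8.95 and 5.90 CPM, whereas CD3D had 1 and 2 counts and CD3G had 2 and 0 counts over the groups. Of 3 tested myeloid markers 1 rose, with sums of 3.09 to 3.97 against 2.55 to 3.22 CPM and S100A8 at 0 in every library. The part of these markers in the results above was not tested.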

How the data were processed

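The 10 RNA libraries of U266 cells were grouped by their labelled genotype. Poly(A) RNA was made into strand-specific libraries and sequenced as read pairs, per the labels' protocols. STAR 2.27a, DESeq2, Partek and the build GRCh38 are listed, with no roles, in the submitters' processing notes. Which annotation and strand setting the counting used is not given in the sources used here. Raw read counts per gene, as the authors deposited them, gave all results unless said otherwise. A normalized signal, also from the authors, equals the count plus 0.0001 times 1 constant per library (within 0.000497%) and was used in 1 alternative.

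Counts of 60573 genes were read. The 4 rows naming no gene (at most 0.000401% of counts) were left out. Of these genes, 17833 passed filterByExpr (edgeR 4.0.16, R 4.3.3) and entered its quasi-likelihood test after TMM scaling, with guide as the only term, Benjamini-Hochberg adjustment and a threshold of 0.05. Variation between libraries beyond counting error (the common coefficient of variation in edgeR) was 0.0489, and a prior count of 2 was added for log2 CPM. The standard error is the absolute log2 fold change over the square root of F. The members and lists were chosen with earlier results of these data known. The text names the 10 members, EFNB2, up to 2 rises and 2 falls of each other list (the largest called changes above a mean log2 CPM of 1), the 3 nearest profiles of BCL6, SATB1 and BACH2, and the most abundant markers; of these a selection is printed, and some are not reported here. The 2 genes overlapping SATB1, the neighbours and the genes so marked in the text were named after their values were seen. The printed positions of the members and the promoters came from RefSeq GRCh38.p14. Overlapping genes, neighbours within 500 kb and exon lengths came from GENCODE 29. The steps were tested on simulated data. Counts of libraries of 1 guide differed by 1.90 to 21.0 times sampling noise (chi-square per degree of freedom). That is more than sampling alone gives when 1 library is sequenced again. It does not tell separate cultures from separate preparations of 1 culture or RNA.

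Alternatives were limma-voom (limma 3.58.1), DESeq2 1.42.0, scaling by library totals or RLE, a stricter filter (1 CPM or more in 5 libraries) or none, a block for the replicate letter, limma-trend on log2(value + 1) of the normalized signal, and fits without each library or without both A libraries.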

Additional observations from a re-analysis of the deposited data

Results flagged for a closer look

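Within a guide's 5 libraries, 1 library can stand apart from the other 4 by most of the group's range. Over 77 genes in 2 groups, 154 in all, this was seen 37 times at a level that chance gives in about 5% of groups. The genes share the same 10 libraries, so the 154 are not independent and 37 cannot be read against that 5%. In 21 cases the library apart was library A of the EFNB2 guide and in 12 library A of the control guide. Among the members, EFNB2 library A stood apart for IRF4 (583.5 CPM), XBP1 (342.0 CPM), POU2AF1 (258.8 CPM) and KLF2 (24.48 CPM), each the lowest of its group. Control library A was lowest for PRDM1 (126.0 CPM), and EFNB2 library E was highest for PAX5 (0.2175 CPM).

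Among other factors and targets, EFNB2 library A stood apart for MYBL1 (33.28 CPM), IKZF1 (134.8 CPM), TBL1X (46.87 CPM), MYC (9.091 CPM), ID3 (144.2 CPM), HMOX1 (101.5 CPM), FTL (2985 CPM), POU2F2 (122.8 CPM), IRF5 (184.4 CPM) and KLF12 (74.26 CPM). It also stood apart for the markers SDC1 (2410 CPM) and ITGAM (3.049 CPM), and for genes with profiles like those of members, at 13.1 CPM for IL32, 30.25 CPM for PLEK, 26.76 CPM for LSAMP, 26.34 CPM for AC036222.3 and 371.3 CPM for SLC9A3R1.

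Control library A stood apart for RUNX1 (5.785 CPM), FLI1 (150.4 CPM), ARID3A (189.1 CPM), IKZF1 (126.0 CPM), HMOX1 (194.7 CPM), EDEM1 (84.88 CPM), POU2F2 (115.0 CPM), KLF12 (74.2 CPM), ITGB7 (192.6 CPM), TRBC1 (146.7 CPM) and BMF (93.01 CPM). The remaining cases were MYBL1 in control library C (25.06 CPM), CD14 in EFNB2 library D (0.1434 CPM) and BHLHA15 in control library B (1.784 CPM). What sets the A libraries apart was not tested.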

How the results depend on the processing

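Over 19 alternatives, 5 to 6 members were called higher and 2 lower, among 3425 to 4992 genes called higher and 3338 to 4861 called lower. Of 171 log2 fold changes of members under these alternatives, 166 kept their direction and their side of the threshold. PRDM1, called in no setting, changed sign to -0.00029 with the deposited normalized values and to -0.0069 without both A libraries, and leaving out 1 library at a time gave -0.019 to 0.041, with the negative value without control library A. IRF4 passed without EFNB2 library A (0.09, adjusted p = 0.00349) and without both A libraries (0.08), and its adjusted p ranged from 0.00114 to 0.792 over the alternatives. PAX5 was tested only without the filter. The log2 fold change of BCL6 ranged from 2.12 to 3.06 and that of SATB1 from 3.88 to 4.66, both lowest on the log2(value + 1) scale, which understates changes of low genes. Of 646 list counts, 599 stayed within 1.5 times of the values given, and the other 47 were mostly counts of 0 to 3 genes.

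Libraries with the same letter did not deviate together: their correlations ran from -0.237 to -0.003, and 0 of 10 libraries correlated best with their own letter. With a replicate block, 3425 genes were higher and 3338 lower, and 5 members were higher and 2 lower, with no member's call changed. Depth limits PAX5, whose control libraries held 0 to 2 counts, and 3 counts are worth 0.0537 to 0.0627 CPM.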
